A study of Gallus gallus with 6 samples.

Results

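Tropomyosins are coiled-coil proteins that lie end to end along actin filaments and decide which myosins, severing proteins and caps can reach the filament. In vertebrates the genes TPM1, TPM2, TPM3 and TPM4 each give many transcripts through alternative promoters and splicing, and non-muscle, smooth muscle and striated muscle forms can come from the same gene. In fibroblasts that turn into contractile myofibroblasts, TGF-beta is known to raise tropomyosin and so to stabilise stress fibres.

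The members described here are all probe sets whose platform symbol was exactly TPM1, TPM2, TPM3 or TPM4: 18 of the 38439 probe sets other than controls. They stand for 3 of the 4 tropomyosin genes. TPM1 had 8, TPM2 had 6, TPM3 had 4 and TPM4 had 0, so TPM4 was not analysed here. The set was chosen by gene family with earlier results of these arrays known, and selected on the inhibitor minus DMSO differences of TPM1, of which the brightest was smaller than dimmer ones. The inhibitor minus DMSO differences of the members are therefore given as a description, with standard errors and without p-values. A probe set was tested if 3 or more of the 6 arrays gave it a log2 intensity of 4 or higher. Of the 18, 15 passed this filter: all 8 of TPM1, 5 of TPM2 and 2 of TPM3.

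The cells were dermal myofibroblasts that grew from explanted skin of chicken embryos (brown Leghorn breed) on day 10. One description field of the labels calls the same cells fibroblasts. Of the 6 cultures, 3 received TGFBR1 Kinase Inhibitor II, which blocks the kinase of the TGF-beta receptor TGFBR1, at 500 nM in DMSO for 48 h, and the 3 control cultures received only DMSO at 0.1%. All were kept in medium with 4% fetal bovine and 2% chicken serum, and each gave 1 Affymetrix chicken array. Per the series title, the question is which gene expression depends on TGF-beta here.

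The deposited values are log2 intensities, in which 1 unit is a 2-fold step. Array medians were 2.98 to 3.03 and the highest values 15.9 to 16.0. All 10 fibroblast markers on the array passed the filter, against 5 of 6 smooth muscle and 1 of 12 skeletal muscle markers, where MYOD1, MYOG and desmin (DES) did not pass. Of the markers of other cell types, 1 of 6 for keratinocytes, 2 of 7 for endothelium, 1 of 5 for melanocytes and Schwann cells and 4 of 6 for leukocytes passed. The mean log2 level of the skeletal muscle markers was 2.62 to 2.66 on inhibitor and 2.58 to 2.70 on DMSO arrays. That of the smooth muscle markers was 7.46 to 7.78 on inhibitor and 7.50 to 8.41 on DMSO arrays. Within the smooth muscle list MYOCD (-2.90 ± 0.35 SE, limma adjusted p 0.00479) and ACTG2 (-2.24 ± 0.53, 0.0401) fell. TAGLN (-0.18 ± 0.09, limma adjusted p 0.253) and ACTA2 (0.46 ± 0.26, 0.301) were not called. MYH11 was higher on inhibitor arrays (2.50 ± 0.36 SE), but it passed the filter only through those arrays, which favoured that direction in advance. The ranges of the skeletal and smooth muscle lists overlapped, as did those of keratinocyte (2.93 to 3.20 on inhibitor and 2.95 to 3.17 on DMSO arrays) and endothelial markers (3.78 to 4.28 and 4.06 to 4.40). Other lists did not overlap. Fibroblast markers stood at 12.53 to 12.97 on inhibitor and 13.08 to 13.22 on DMSO arrays, and within that list POSTN fell (-2.81 ± 0.55 SE, limma adjusted p 0.0217) while PDGFRB rose (1.20 ± 0.18, 0.00919). LUM, not called, stood at -1.95 ± 0.55 (limma adjusted p 0.0651), and the remaining fibroblast markers lay between -0.35 and 0.24. Leukocyte markers stood at 4.84 to 5.02 on inhibitor and 4.63 to 4.64 on DMSO arrays, and melanocyte and Schwann cell markers at 3.53 to 3.61 and 3.30 to 3.48. Of the melanocyte and Schwann cell markers only MITF passed the filter (0.97 ± 0.27, limma adjusted p 0.0619), and PMEL, TYR, DCT and SOX10 did not. No gene of these last lists met the threshold, and of the endothelial markers PECAM1 fell (-0.82 ± 0.20, limma adjusted p 0.0409). A measure of RNA integrity, the 3′ over the 5′ signal of control probes for ACTB, stood at 1.57 ± 0.08 on inhibitor and 1.43 ± 0.05 on DMSO arrays (log2, SD, n = 3 each). The same measure was -0.07 ± 0.05 on inhibitor and -0.02 ± 0.07 on DMSO arrays for GAPDH, and 0.50 ± 0.03 and 0.50 ± 0.05 for EEF1A1. The part of these marker and control differences in the results below was not tested.

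TPM1 was lower in the inhibitor cultures by every one of its probe sets. All 8 met the threshold of limma over all tested probe sets (adjusted p under 0.05), and in all 8 the groups did not overlap. Across the array 6.51% of tested probe sets met that threshold downward, and 17.1% had all inhibitor values below all DMSO values. These shares are given for scale only. Both counts of 8 are a description and no support, because the same differences helped to choose the members. The difference ranged from -0.36 to -2.29, with a median of -0.96, against a median of 0.01 over all tested probe sets. In cultures as a whole, fewer cells with a transcript and less of it per cell cannot be told apart.

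The brightest TPM1 probe set, GgaAffx.20738.1.S1_s_at, read 15.03, 14.95 and 15.07 on the inhibitor arrays, against 15.45, 15.34 and 15.34 on the DMSO arrays. Its difference was -0.36 ± 0.06 (SE), so that 77.8% of the DMSO intensity was left. Every inhibitor value lay below every DMSO value, by at least 0.28. This is the smallest of the TPM1 differences, and it was seen at the top of the scale, where only 0.217% of tested probe sets had a higher mean.

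Gga.4108.1.S1_at, whose source is a reference TPM1 transcript, read 14.70, 14.64 and 14.69 on inhibitor and 15.36, 15.17 and 15.09 on DMSO arrays. It differed by -0.54 ± 0.08, which left 69.0%. The inhibitor replicates were closer together (SD 0.03) than the DMSO replicates (SD 0.14), and the gap between the groups was 0.39.

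The 3 probe sets Gga.4108.4 share 1 source sequence, so they are no independent measurements. Gga.4108.4.S1_a_at read 14.43, 14.44 and 14.38 on inhibitor and 15.14, 15.25 and 15.15 on DMSO arrays, a difference of -0.76 ± 0.05. Gga.4108.4.S1_x_at read 14.20, 14.10 and 14.22 on inhibitor and 15.08, 15.11 and 15.02 on DMSO arrays, a difference of -0.90 ± 0.06. In both, replicates of a group lay far closer to each other than to the other group. Gga.4108.4.S1_s_at read 13.82, 13.81 and 13.93 on inhibitor and 14.94, 14.92 and 14.78 on DMSO arrays. It was 2.04-fold lower in the inhibitor cultures (-1.03 ± 0.07), with a gap of 0.85 between the groups.

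The remaining TPM1 probe sets were dimmer and had larger differences. Gga.4108.1.S2_at read 11.47, 11.63 and 12.01 on inhibitor and 13.04, 12.88 and 12.91 on DMSO arrays, 2.37-fold lower (-1.24 ± 0.14). Its inhibitor replicates spread more (SD 0.28) than its DMSO replicates (SD 0.09), and inhibitor replicate 3 was the nearest to the controls.

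Gga.4108.5.S1_x_at read 9.41, 8.65 and 9.42 on inhibitor and 11.21, 10.90 and 10.97 on DMSO arrays, 3.64-fold lower (-1.86 ± 0.23). Gga.4108.2.S1_a_at read 9.11, 8.45 and 9.09 on inhibitor and 11.57, 10.88 and 11.06 on DMSO arrays. At -2.29 ± 0.25 it had the largest difference of any member, with 20.5% of the DMSO intensity left. In both of these probe sets inhibitor replicate 2 was the lowest array, and the gap between the groups was 1.48 and 1.77.

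**Figure D1:**
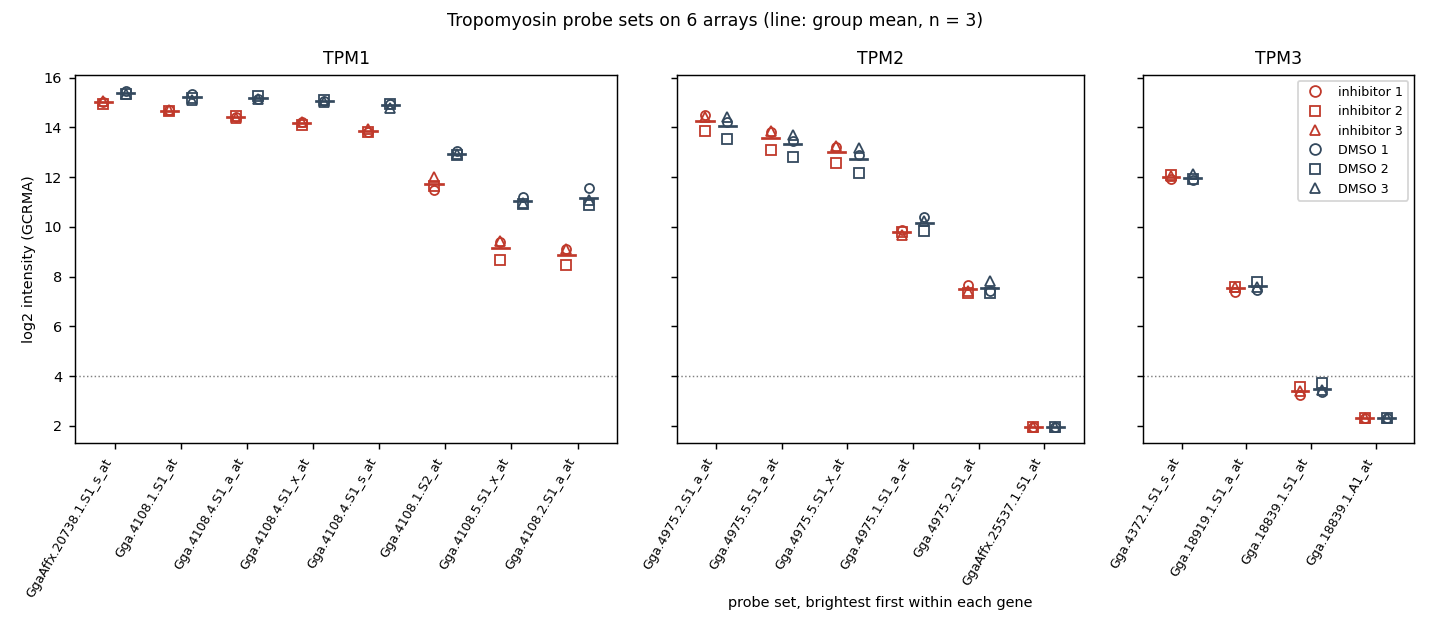
Log2 intensity (y axis) of each of the 18 tropomyosin probe sets (x axis, brightest first within a gene) on each array, with inhibitor arrays in red left of DMSO arrays in dark blue, symbols for replicate numbers, short lines for group means (n = 3) and a dotted line at the filter of 4. The groups are apart in all 8 TPM1 probe sets and overlap in those of TPM2 and TPM3.

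The size of the TPM1 difference followed brightness. This order is a description and carries no test, because a smaller difference of the brightest TPM1 probe set helped to select the members. The 8 probe sets came from 6 distinct source sequences, so they are not 8 independent points. Ranked by the mean over all 6 arrays, the 8 probe sets ran from 15.20 to 10.03, and each dimmer one had a larger difference than the one before it. The mean over all arrays contains the inhibitor values themselves. Ranked by the DMSO mean alone the order was the same apart from the last places, where Gga.4108.5.S1_x_at (11.03) came below Gga.4108.2.S1_a_at (11.17). Brightness differs between probe sets for reasons of probe sequence as well as transcript amount, so it is no measure of which transcript is more abundant.

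The kind of probe set, given by its suffix, did not order the differences. In Affymetrix names a plain _at stands for 1 transcript, _a_at for transcripts of the same gene, _s_at for probes shared by several transcripts and _x_at for probes that can also bind unrelated ones. TPM1 had 2 of each kind. The differences were -0.54 and -1.24 for _at, -0.76 and -2.29 for _a_at, -0.36 and -1.03 for _s_at, and -0.90 and -1.86 for _x_at. Within each kind the dimmer probe set had the larger difference. That follows from the order by brightness above, so it too is a description and no separate result. Which exons or transcripts each probe set reads is not given in the sources used here, and RefSeq lists 21 transcripts for chicken TPM1, so isoforms could not be assigned.

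Differences at the top of the intensity scale were small across the whole array. Among the 267 tested probe sets with a mean of at least 14, the median absolute difference was 0.09 and differences at the 5th and 95th percentiles were -0.53 and 0.32. Among the 2676 with a mean of 10 to 12, it was 0.22, with -0.71 and 0.77 at the same percentiles. The tropomyosin probe sets were kept among these, so their own values enter the percentiles. Set against probe sets of their own brightness, the TPM1 values all lay toward the low end. Gga.4108.4.S1_s_at had the lowest difference of the 267, and the other bright TPM1 probe sets ranked 3, 7, 14 and 23 from the lowest. Gga.4108.1.S2_at ranked 16 of 952 with a mean of 12 to 14. The dimmest pair, Gga.4108.2.S1_a_at and Gga.4108.5.S1_x_at, ranked 13 and 24 of 2676. These ranks describe the chosen probe sets and carry no test. Whether probes near the top of the scale respond less than in proportion was not tested.

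**Figure D2:**
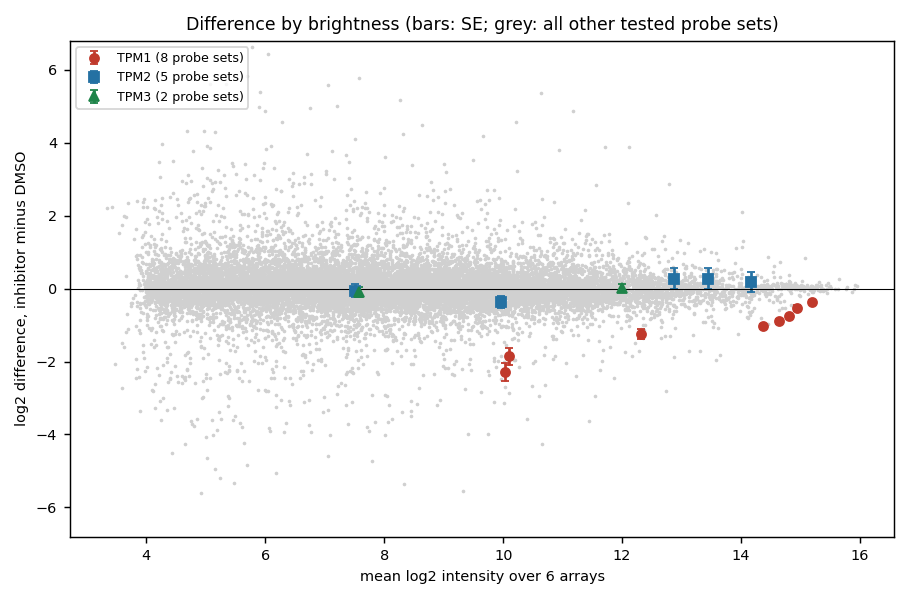
Log2 difference, inhibitor minus DMSO (y axis), against mean log2 intensity over the 6 arrays (x axis) for every tested probe set, with TPM1 in red, TPM2 in blue, TPM3 in green (bars, SE) and all others in grey. The TPM1 points run from -0.36 at the bright end to -2.29 at a mean of 10.03, and the spread of the grey points narrows toward the bright end.

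Replicate numbers gave the same direction in each TPM1 probe set. That follows from groups that do not overlap, so it is a description and no separate result. Taken between arrays of 1 replicate number, the difference of Gga.4108.2.S1_a_at was -2.45, -2.43 and -1.97 for replicates 1, 2 and 3. That of the brightest probe set was -0.41, -0.40 and -0.28. The difference was smallest in replicate 3 in 7 of the 8 probe sets and in replicate 1 in Gga.4108.4.S1_a_at (-0.71, -0.81 and -0.77).

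TPM2, known as beta-tropomyosin, had no call in limma. Of its 5 tested probe sets 0 met the threshold in either direction, and 0 had an unadjusted p under 0.05. Across the array 13.8% of tested probe sets were called, so with so few probe sets this count says little. The 6 TPM2 probe sets came from 3 distinct source sequences, and the groups overlapped in all 5 tested ones. The differences ran from -0.37 to 0.27, with both signs. Their standard errors were 0.16 to 0.29, against 0.06 for the brightest TPM1 probe set, which was called at -0.36. Gga.4975.2.S1_a_at, the brightest, read 14.49, 13.85 and 14.43 on inhibitor and 14.23, 13.54 and 14.43 on DMSO arrays (0.19 ± 0.27). Gga.4975.5.S1_a_at read 13.82, 13.10 and 13.85 on inhibitor and 13.45, 12.82 and 13.68 on DMSO arrays (0.27 ± 0.29). Gga.4975.5.S1_x_at, from the same source sequence, read 13.20, 12.58 and 13.25 on inhibitor and 12.90, 12.17 and 13.16 on DMSO arrays (0.27 ± 0.29).

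In these 3 bright TPM2 probe sets the spread between replicates exceeded the difference between groups, and the lowest array of each group was replicate 2. Replicate 2 lay below the mean of replicates 1 and 3 by 0.61 (Gga.4975.2.S1_a_at), 0.73 (Gga.4975.5.S1_a_at) and 0.65 (Gga.4975.5.S1_x_at) on inhibitor arrays. On DMSO arrays it lay below by 0.79, 0.75 and 0.86 for the same probe sets. Replicate 2 was the lowest array of both groups in 18.0% of all tested probe sets. A shortfall of at least 0.6 in both groups, a cutoff just under the smallest of the values above, was seen in 3.74%. With the replicate number as a block, the difference of Gga.4975.5.S1_a_at was 0.27 ± 0.06 and met the threshold upward, as did 14.9% of tested probe sets in that fit. The other TPM2 probe sets did not meet it. The same-number differences of Gga.4975.5.S1_a_at were 0.37, 0.28 and 0.16, and those of Gga.4975.5.S1_x_at 0.30, 0.41 and 0.09. Across the array, 32.1% of tested probe sets were higher on the inhibitor array in all 3 replicate numbers.

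Of the dimmer TPM2 probe sets, 1 lay lower on the inhibitor arrays in all 3 replicate numbers. Gga.4975.1.S1_a_at, from a reference TPM2 transcript, read 9.88, 9.78 and 9.69 on inhibitor and 10.40, 9.83 and 10.23 on DMSO arrays (-0.37 ± 0.16). Its same-number differences were -0.52, -0.05 and -0.54. Its highest inhibitor value (9.88) exceeded its lowest DMSO value (9.83), and without DMSO replicate 2 the difference was -0.53. Gga.4975.2.S1_at read 7.68, 7.34 and 7.43 on inhibitor and 7.42, 7.36 and 7.84 on DMSO arrays (-0.06 ± 0.18). Its groups overlapped and its sign was not steady: the same-number differences were 0.27, -0.03 and -0.41, and the mean turned to 0.02 without inhibitor replicate 2 and 0.09 without DMSO replicate 3. GgaAffx.25537.1.S1_at did not pass the filter and read 1.97 on all 6 arrays, a value at the floor of the method.

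TPM3, a tropomyosin of slow muscle and of most non-muscle cells, had no call among its 2 tested probe sets, and 0 at an unadjusted p under 0.05. Across the array 13.8% of tested probe sets were called in limma, so with so few probe sets this count says little. Gga.4372.1.S1_s_at read 11.92, 12.07 and 12.04 on inhibitor and 11.90, 11.92 and 12.13 on DMSO arrays, a difference of 0.03 ± 0.09. Gga.18919.1.S1_a_at read 7.39, 7.59 and 7.59 on inhibitor and 7.46, 7.80 and 7.57 on DMSO arrays, a difference of -0.09 ± 0.14. The groups overlapped in both, and neither met the threshold with or without the replicate block. Gga.18839.1.S1_at read 3.22 to 3.56 on inhibitor and 3.35 to 3.71 on DMSO arrays and did not pass the filter. Gga.18839.1.A1_at, whose name marks the antisense strand, read 2.30 to 2.32 on inhibitor and 2.31 to 2.32 on DMSO arrays, also below it.

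**Figure D3:**
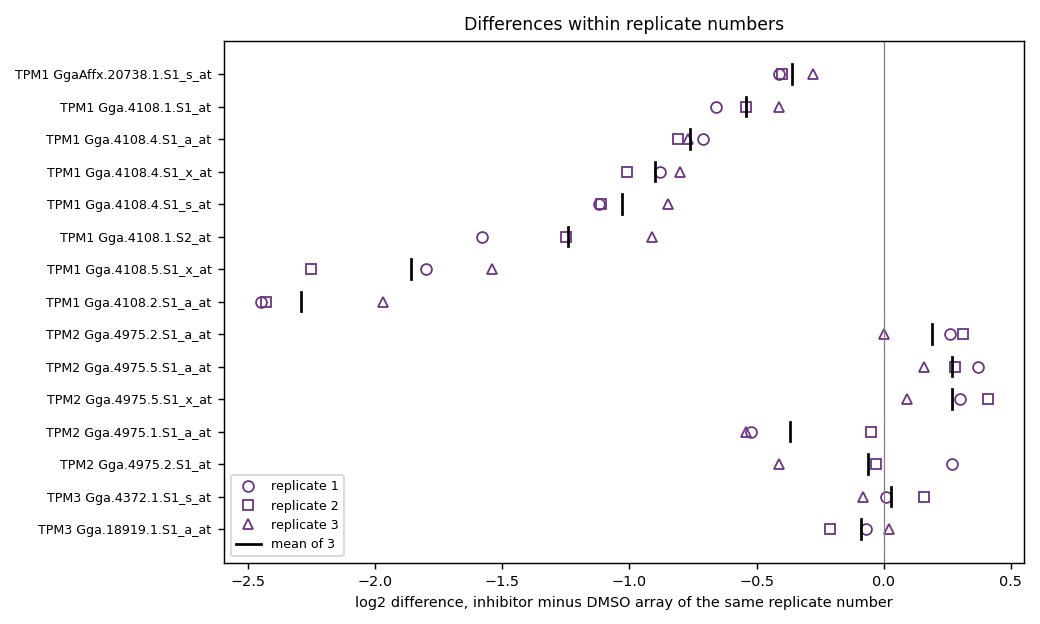
Log2 difference between the inhibitor and the DMSO array of the same replicate number (x axis) for each of the 15 tested tropomyosin probe sets (rows), with a symbol for each replicate number and a line at the mean of 3. All symbols of the 8 TPM1 probe sets lie below 0, from -0.28 to -2.45, whereas those of TPM2 and TPM3 lie between -0.54 and 0.41. For TPM1 the shared sign follows from groups that do not overlap.

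The genes whose profile over the 6 arrays was nearest to that of a TPM1 probe set were found by root mean square distance among 8001 other genes, after centring each profile on its own mean. For the brightest TPM1 probe set these were NUP42 (distance 0.039), UVRAG (0.040) and HNRNPDL (0.041), against a median distance of 0.29. For Gga.4108.2.S1_a_at they were FAM198B (0.083), SIPA1L2 (0.17) and RUNX1 (0.20), against a median distance of 1.20 over all genes compared. FAM198B read 6.59, 5.68 and 6.40 on inhibitor and 8.95, 8.15 and 8.44 on DMSO arrays. Its fall and its low replicate 2 follow from its choice as the nearest profile. The measure includes the size of the difference as well as the shape of the profile.

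Genes that act with tropomyosin moved in both directions. Of 76 listed genes 65 were on the array by symbol and 50 passed the filter, each represented by its brightest tested probe set. In limma 7 rose and 6 fell, which is 26.0% of the 50, against 15.7% of the 8124 genes tested. With the replicate number as a block, 13 rose and 9 fell, which is 44.0% against 31.6% of all genes. The lists were chosen with earlier results of these data known, so these shares are a description and carry no test. The counts include TMOD2, MYH11 and FHOD3, which passed the filter only through the group where they were higher. The median difference of the 50 was 0.01, the same as over all probe sets.

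Both tested tropomodulins, caps that bind tropomyosin and actin at the slow-growing filament end, rose. TMOD3 averaged 11.50 ± 0.30 in inhibitor and 10.62 ± 0.22 in DMSO cultures (log2, SD, n = 3 each), 1.83-fold higher (0.87 ± 0.19 SE, limma adjusted p 0.0279). TMOD2 averaged 5.93 ± 0.73 in inhibitor and 3.49 ± 0.01 in DMSO cultures (2.45 ± 0.35). The DMSO values of TMOD2 lie below the filter of 4, where values crowd toward the floor, so the size of that rise and the small DMSO spread depend on it. TMOD2 passed the filter only through its inhibitor arrays, which favoured a rise in advance, so its call is no support. The TMOD3 call was lost without inhibitor replicate 1 or 2 or without DMSO replicate 1 or 3 (limma adjusted p 0.0777 to 0.0942). With the replicate block the limma adjusted p of TMOD3 was 0.00373, and a second TMOD3 probe set differed by 1.09 and was called.

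Caldesmon and the calponins, which share the filament with tropomyosin, gave no call in limma among 3 tested genes, and 1 at an unadjusted p under 0.05. With the replicate block 1 fell. The shares called over all genes were 15.7% and, with the block, 31.6%. CALD1, which binds actin, myosin and tropomyosin, averaged 13.92 ± 0.11 in inhibitor and 14.09 ± 0.13 in DMSO cultures (-0.17 ± 0.09, limma adjusted p 0.276). CNN2, a calponin, stood at -0.48 ± 0.13 (limma adjusted p 0.0625, with the replicate block 0.0127), and CNN3 at 0.00 ± 0.06. Of 6 troponin subunits on the array, the calcium-sensing partners of tropomyosin in striated muscle, only TNNT3 passed the filter (4.84 ± 0.16 in inhibitor and 4.42 ± 0.53 in DMSO cultures).

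Of 5 tested actin genes 2 fell and the other 3 were not called, with and without the replicate block. The shares called over all genes were 15.7% and, with the block, 31.6%. ACTA1, the skeletal muscle form, fell 2.56-fold and averaged 11.97 ± 0.23 in inhibitor and 13.33 ± 0.43 in DMSO cultures (-1.36 ± 0.23, limma adjusted p 0.0132). ACTG2 also fell (-2.24 ± 0.53, limma adjusted p 0.0401, with the replicate block 0.000666). Of the fits without 1 array, only that without DMSO replicate 2 kept the ACTG2 call. ACTA2 stood at 0.46 ± 0.26 (limma adjusted p 0.301), and 0.18 without DMSO replicate 2. ACTB stood at -0.02 ± 0.04 and ACTG1 at -0.07 ± 0.12. These actin genes are close in coding sequence, and how far their probe sets bind each other's transcripts was not tested.

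Of 11 tested genes for myosin II and its regulators 3 rose and the other 8 were not called, against 15.7% called over all genes. MYH10, a non-muscle heavy chain, rose to 14.86 ± 0.05 in inhibitor against 14.25 ± 0.27 in DMSO cultures (0.61 ± 0.13, limma adjusted p 0.0279, lost at 0.0634 to 0.0898 without any array other than DMSO replicate 2 or 3), and its other probe set (0.90) was not called. PPP1R12B, a targeting subunit of myosin phosphatase, rose 2.12-fold (1.08 ± 0.16, limma adjusted p 0.00919). MYH11, the smooth muscle heavy chain, also rose (2.50 ± 0.36), with DMSO values of 3.92, 2.81 and 3.74 that lie below the filter. MYH11 passed only through its inhibitor arrays, which favoured a rise in advance, so its call is no support. The kinase MYLK stood at 1.51 ± 0.70 (limma adjusted p 0.215, with the replicate block 0.00611). Its difference was 0.84 without DMSO replicate 2 and its values were lowest in replicate 2 of both groups, 9.51 in inhibitor and 7.70 in DMSO, as with bright TPM2.

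Among 12 tested genes of filament assembly and severing 1 rose and 1 fell, and with the replicate block 4 rose and 1 fell. The shares over all genes were 15.7% and, with the block, 31.6%. FHOD3, a formin of muscle and stress fibres, read 2.81, 2.67 and 3.35 on inhibitor and 7.29, 5.60 and 6.83 on DMSO arrays (-3.63 ± 0.45). Its inhibitor values lie below the filter, so the size of the fall depends on the floor. FHOD3 passed only through its DMSO arrays, which favoured a fall in advance, so its call is no support. SVIL, an actin and myosin II binding protein, rose 2.12-fold (1.09 ± 0.15, limma adjusted p 0.00639). LIMA1, which slows filament turnover, stood at 0.39 ± 0.10 (limma adjusted p 0.0566, with the replicate block 0.0330, without inhibitor replicate 3 0.0188).

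The coactivators through which SRF drives tropomyosin genes differed from one another. MYOCD fell (-2.90 ± 0.35, limma adjusted p 0.00479), with 5.76 ± 0.20 in inhibitor and 8.66 ± 0.71 in DMSO cultures, and its dimmer probe set, also called, differed by -0.68. MKL2, a myocardin-related factor, rose 1.86-fold (0.90 ± 0.15, limma adjusted p 0.0141, with the replicate block 0.00421), a call lost without DMSO replicate 1 or 3 (0.0580 and 0.0545). Its relative MKL1 stood at 0.47 ± 0.16 (limma adjusted p 0.115, with the replicate block 0.0155).

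Of 12 tested splicing regulators 2 fell and the other 10 were not called, and with the replicate block 1 rose and 4 fell. Of all genes tested 15.7% were called, and 31.6% with the block, so these counts are no result about splicing regulators. RBM24, which favours muscle exons, averaged 6.13 ± 0.10 in inhibitor and 7.41 ± 0.28 in DMSO cultures, 2.43-fold lower (-1.28 ± 0.17, limma adjusted p 0.00667), and its other probe set differed by -1.33. PTBP2, a relative of the PTBP1 protein that represses tropomyosin exons, fell (-1.16 ± 0.28, limma adjusted p 0.0400, with the replicate block 0.00892). This call was lost without any single array (limma adjusted p 0.0591 to 0.117), while the other tested PTBP2 probe set differed by -0.89 and was called. CELF2 stood at -0.89 ± 0.29 (limma adjusted p 0.0980, with the replicate block 0.0142).

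**Figure D4:**
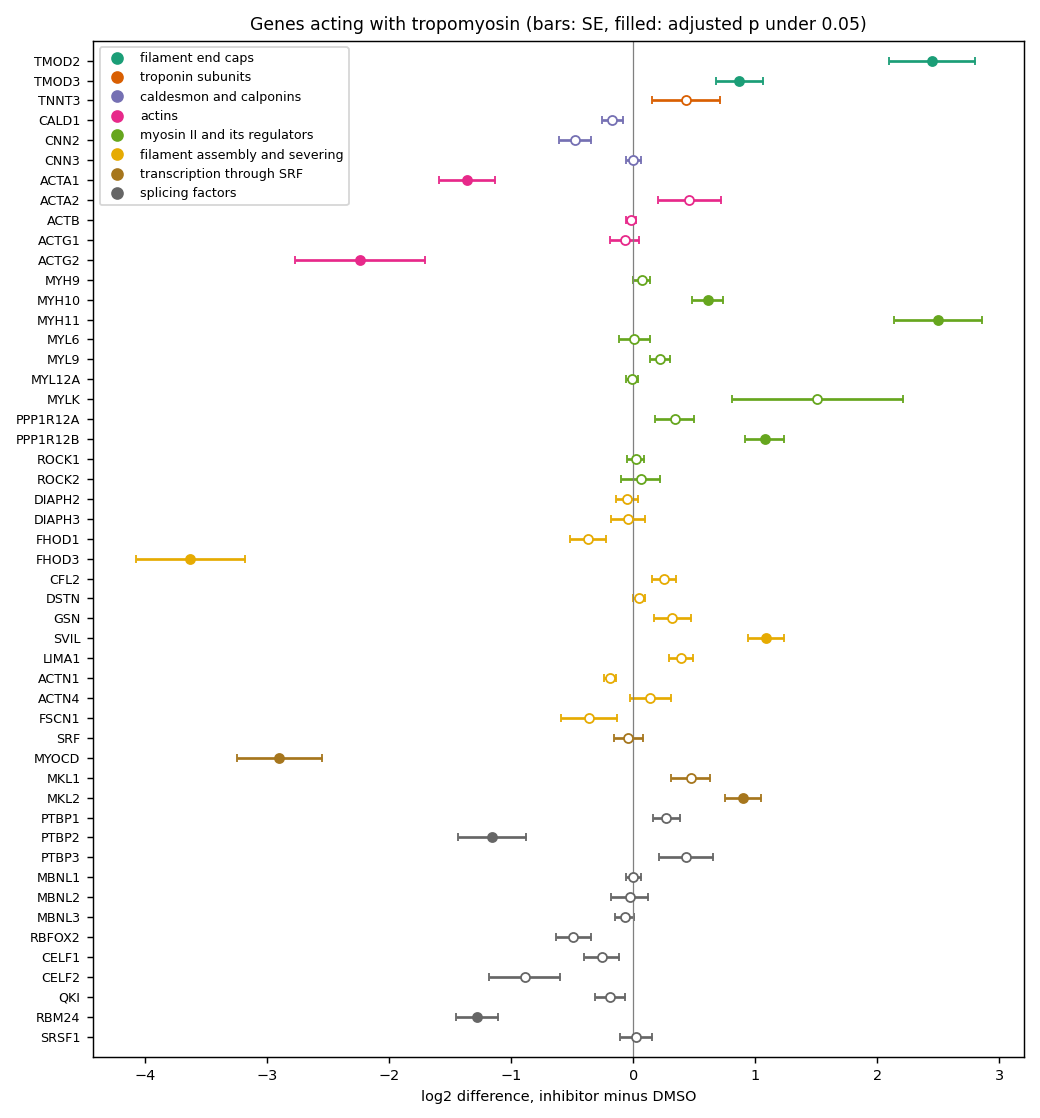
Log2 difference, inhibitor minus DMSO (x axis; bars, SE), of the 50 tested genes that act with tropomyosin (rows, coloured by list), each by its brightest tested probe set, with filled points for limma adjusted p under 0.05. The 13 filled points lie on both sides of 0, with 7 above and 6 below it, and the sizes of FHOD3, MYH11 and TMOD2 depend on the floor of the method. FHOD3, MYH11 and TMOD2 passed the filter only through the group where they were higher.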

How the data were processed

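Per the submitters' processing notes, the authors made the deposited log2 intensities with GCRMA, which corrects, normalizes and summarises Affymetrix probes, with Partek 6.4 named beside it. Its settings are not given in the sources used. GCRMA gathers dim probe sets at a floor near 2 to 3, which hides differences there. Sample titles gave the group and the replicate number. Embryos are not named for the biological replicates, so the p-values cover only the spread among these cultures.

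The filter kept 16567 (43.1%) of 38535 probe sets, without the 96 controls. Symbols came from the platform annotation, which can be old. RefSeq counts of transcripts came from a gene table of another build, so no coordinates are printed. Inhibitor minus DMSO was fitted with limma 3.58.1 in R 4.3.3 (eBayes with trend, two-sided, Benjamini-Hochberg over all 16567, no replicate block). The fit was tested on simulated data in which all arrays were independent, so that test does not cover the pairing given next. The numbers pair the samples, by data only: deviations from group means correlated at 0.632, 0.672 and 0.451 between same-numbered arrays and at -0.447 to -0.139 between others.

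The members and gene lists were chosen with earlier results of these data known. Named were every member and, in each list, the called genes and the up to 3 largest differences. The 3 nearest profiles to each of 2 TPM1 probe sets were also named. Marker, control, actin and multi-probe-set genes outside this rule were named after their values were seen. The number of arrays limits the precision.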

Additional observations from a re-analysis of the deposited data

How the results depend on the processing

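Each result was recomputed under 14 alternatives: a replicate block, no filter, a filter at 6, quantile normalization, median centring, limma without trend, robust or without moderation, and without each array in turn. The TPM1 differences helped to choose the members, so how they behave under the alternatives is a description and no support. Without 1 array they ranged from -0.39 to -0.33 for GgaAffx.20738.1.S1_s_at, which missed the threshold without trend, and from -2.43 to -2.07 for Gga.4108.2.S1_a_at. In the fit with the replicate block 1 TPM2 probe set met the threshold upward. Without 1 array, the bright TPM2 differences ranged from -0.07 to 0.39 for Gga.4975.2.S1_a_at, 0.02 to 0.52 for Gga.4975.5.S1_a_at and -0.02 to 0.48 for Gga.4975.5.S1_x_at.

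Probe sets called in limma, 2283 (1205 up, 1078 down), came to 4661 (2470 and 2191) with the replicate block, 996 (516 and 480) without moderation and 1285 (666 and 619) unfiltered. Without 1 array they came to 1107 to 1658 (571 to 894 up, 536 to 806 down); the count was 1206 without inhibitor replicate 1, 1107, 1495 and 1267 without DMSO replicate 1, 2 and 3. The 13 partner calls (7 up, 6 down) came to 22 (13 up) with the block, 4 (1 up, 3 down) without moderation, 20 (10 down) counting every tested probe set, and 4 up with the filter at 6, under which fewer genes are tested. Without 1 array they came to 8 to 12 (4 to 7 up, 4 to 5 down), with 8 without DMSO replicate 1. Of the 13, 8 kept the call without each array. Among these are TMOD2, MYH11 and FHOD3, which passed the filter only through the group where they were higher. CNN3, at 0.00, turned to -0.03 with median centring and ranged from -0.04 to 0.03 without 1 array, with -0.04, -0.01 and -0.01 without inhibitor replicate 3, DMSO replicate 2 or DMSO replicate 3. The cause of the other changes was not tested. Intensities near the floor limit what differences can be measured, and whether those near 16 do so was not tested.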

Other observations

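The order of TPM1 differences by brightness was also looked for in other genes, by a rule chosen after the TPM1 pattern was seen: at least 3 tested probe sets, 1 or more of them called, a brightest mean of at least 14 and a range of means of at least 2. Besides TPM1, 5 genes met it. The brightest probe set had the smallest absolute difference in 3 of the 5, COL12A1, CORO1C and TRAM1L1, and not in ASPH or FN1. The dimmest had the largest absolute difference in 2 of the 5, COL12A1 and CORO1C, and in TRAM1L1 the brightest (-0.51) and the dimmest (-0.58) were close. COL12A1, a collagen on the surface of fibrils, was the nearest case, with -0.96 at a mean of 14.45 and -2.20 at a mean of 9.31. CORO1C, an actin-binding coronin, went the other way in sign, with 0.18 at a mean of 14.11 and 1.02 at a mean of 6.06. In ASPH the brightest probe set had -0.35 and the dimmest -0.21.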
